A study of Mus musculus with 30 samples.

Results

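The genes described here are the mouse zinc finger genes with symbols in the range of Zfp800 to Zfp999. The rule that picked them reads the symbol alone and uses no measured value. Earlier results of these data were known when the members and the gene lists below were chosen. Such a symbol is carried by 90 of the 29555 genes of the deposited RNA tables. A further 316 genes with a Zfp symbol and another number serve as the nearest background. The samples were mouse epiblast stem cells (EpiSCs), the primed pluripotent cells of the post-implantation embryo, and definitive endoderm (DE), the germ layer of gut, liver and pancreas, made from them. EpiSCs came from the inbred strains C57BL/6 (B6; 5 RNA and 4 ATAC libraries), PWK/PhJ (3 RNA and 2 ATAC), DBA/2J (1 RNA and 1 ATAC) and from B6.129 F1 (3 RNA). All were at passages 5 to 10, with no engineered allele given in the labels, and grew on feeder cells in N2B27 medium with Fgf2, ActivinA and the Wnt inhibitor NVP-TNKS656. B6 DE (4 RNA and 4 ATAC) was obtained after 46 h of differentiation and sorted with magnetic beads for the surface receptor CXCR4. The labels also give differentiation steps of 16 h and 24 h, without explaining how these make up the 46 h. The labels call the samples biological replicates without saying whether they were separate lines or cultures, so p-values measure only the spread between these samples.

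Most genes of this kind encode proteins with a KRAB domain and a row of C2H2 zinc fingers. The fingers read DNA, very often within endogenous retroviruses and other transposable elements, and the KRAB domain recruits Trim28 (KAP1), which brings in the H3K9 methyltransferase Setdb1 and heterochromatin proteins. The family has grown in rodents by repeated duplication of neighbouring genes, which leaves clusters of close copies, and the clusters on chromosomes 2 and 4 are among those expanded in the mouse. In pluripotent cells the Trim28 and Setdb1 pathway is known for keeping retroviral elements silent. The number range is a naming range and not a family: Zfp800, Zfp821, Zfp827, Zfp830 and Zfp839 carry the number of a human counterpart, whereas most members of the clusters are rodent copies. Because copies are similar, reads can be split between them or dropped, and the value of any one copy is uncertain.

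Of the 90 genes, 87 had a place in RefSeq on GRCm38.p6, the build that the submitters' notes call mm10. Zfp969, Zfp986 and Zfp989 had none. Taking members of 1 chromosome that lie under 2 Mb from the next, 9 clusters of at least 3 members held 59 of them. The cluster at chr4:145510759-147849126 was the largest, with 14 members (Zfp933, Zfp978 to Zfp982, Zfp984, Zfp985, Zfp987, Zfp988 and Zfp990 to Zfp993) among 65 annotated genes. The cluster at chr17:21565816-22867309 held 11 (Zfp820, Zfp942 to Zfp948, Zfp983, Zfp994 and Zfp995). At chr2:174598682-178078425 lay 9 (Zfp831, Zfp931, Zfp965, Zfp966, Zfp968 and Zfp970 to Zfp973). The cluster at chr8:69209018-69774911 held 6 members among 7 annotated genes. The remaining clusters lay at chr7:42579397-43618279 (5 members), chr7:27905414-29853695 (3), chr9:20581299-22307814 (4), chr13:62129857-62579321 (3) and chr17:32765496-33005457 (4).

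The likeness of the copies shows in their promoters, and the stretches below are printed to show how close the copies of the clusters with strain differences are, since identical letters limit what a read can tell. RefSeq start sites on GRCm38.p6 were given for 77 members, 12 of them with more than 1 start. Across the 8 promoters of the chromosome 2 cluster with an entry, the 250 bases before the start were a median of 83.0% identical over 28 pairs, with a range of 65.6% to 99.6%. The chromosome 4 promoters had a median of 54.8% and those of the cluster at chr17:21565816-22867309 a median of 53.2%. The same letters stood before Zfp966 (chr2:175931130-175931226, minus strand), Zfp973 (chr2:176670422-176670518, plus strand) and Zfp965 (chr2:175469885-175469981, plus strand), in 97 of 97 bases. Zfp972 (chr2:177925703-177925799, minus strand) matched them at 89 of 97 positions, and Zfp977 of the chromosome 7 cluster (chr7:42592579-42592675, minus strand) at 78. All sequences run 5′ to 3′ on the strand of the gene, lie outside the annotated span of the gene, and have CCAAT or its reverse complement ATTGG in capitals.
Zfp966, Zfp973 and Zfp965: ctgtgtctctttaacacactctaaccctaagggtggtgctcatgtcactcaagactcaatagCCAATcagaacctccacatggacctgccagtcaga
Zfp972: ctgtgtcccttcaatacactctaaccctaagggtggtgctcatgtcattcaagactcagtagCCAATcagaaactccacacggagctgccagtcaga
Zfp977: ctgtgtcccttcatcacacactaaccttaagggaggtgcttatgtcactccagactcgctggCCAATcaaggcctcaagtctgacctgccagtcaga

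A second stretch recurred in the chromosome 4 cluster and in the cluster at chr17:21565816-22867309. It stood before Zfp980 (chr4:145670594-145670690, plus strand), Zfp987 (chr4:146097199-146097295, plus strand), Zfp979 (chr4:147642515-147642611, minus strand) and Zfp994 (chr17:22225686-22225782, minus strand). Zfp987 matched Zfp980 at 89 of 97 positions, Zfp979 at 88, and Zfp994 at 41, counted without gaps.
Zfp980: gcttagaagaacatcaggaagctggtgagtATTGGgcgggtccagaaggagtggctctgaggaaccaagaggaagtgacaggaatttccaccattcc
Zfp987: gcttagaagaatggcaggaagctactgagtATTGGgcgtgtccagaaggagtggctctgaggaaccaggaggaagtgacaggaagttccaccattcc
Zfp979: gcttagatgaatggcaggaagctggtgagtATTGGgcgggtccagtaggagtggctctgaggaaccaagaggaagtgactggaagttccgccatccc
Zfp994: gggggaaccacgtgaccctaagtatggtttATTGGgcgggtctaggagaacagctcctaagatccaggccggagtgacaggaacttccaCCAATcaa

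Searched on both strands of the 250 bases, the letters CTAACCNTAAG of the stretch in Zfp966 occurred in 12 of 77 member promoters (15.6%), in 0 of 257 other Zfp promoters and in 45 of 27025 promoters of all genes (0.17%). Of the 12, 8 lay in the chromosome 2 cluster, 3 in the cluster at chr7:42579397-43618279 and 1 in the chromosome 13 cluster. The other 33 of the 45 promoters belonged to genes that are not members, so the letters are not particular to the members. Most of these genes had Gm symbols, such as Gm14288, Gm14295, Gm14305 and Gm14325. Zfp967 was also among them, with a symbol in the number range although it is not a member here. The letters ATTGGGCGNGTC of the stretch in Zfp980 occurred in 8 member promoters (10.4%), 6 of them on chromosome 4 and 2 on chromosome 17, against 0.8% of other Zfp promoters and 0.06% of all. Both were picked after the sequences had been read, and ATTGGGCGNGTC contains ATTGG. The letters of the CCAAT box, on either strand, stood in 57 of 77 member promoters (74.0%), against 40.9% of other Zfp promoters and 34.5% of all. TATAAA stood in 1 of 77 (1.3%), against 13% of all promoters. The median GC content was 50.8% in members and 52.0% in all promoters.

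RNA libraries held 22829536 to 66563933 counts in the table of DE and EpiSCs and 24529054 to 29947841 in the table of EpiSCs, and ATAC libraries held 3751526 to 9571127. The B6 EpiSC columns are the same counts in both RNA tables. The labelled cell types were checked against their markers: all 8 endoderm markers were higher in DE, with summed levels of 5862 to 12660 counts-per-million (CPM) against 158.6 to 367.7 in EpiSCs. Of 7 EpiSC markers 4 were lower in DE and 2, Fgf5 (log2 fold change 2.91) and Otx2 (1.83), higher, so their sum overlapped (2983 to 3976 CPM in DE, 2759 to 4097 in EpiSCs). Of 3 visceral endoderm markers tested, Rbp4 (5.46) and Apoa1 (4.45) were higher in DE, and the 5 listed summed to 15.1 to 86.9 CPM there and 1.22 to 4.29 in EpiSCs. Their part in the results was not tested. The 4 neuroectoderm markers summed to 5.94 to 51.2 CPM in B6 EpiSCs, 25.7 to 35.2 in F1 and 1.19 to 2.02 in PWK. Olig1 was lower in PWK (log2 fold change -8.17, edgeR adjusted p = 0.000441). In the DE comparison they summed to 1.31 to 5.745 CPM in DE and 5.724 to 49.2 in EpiSCs. Of the 7 EpiSC and 8 endoderm markers, 0 were called in PWK or F1. The part of neuroectoderm transcripts in the results was not tested either. Transcripts of 11 feeder fibroblast genes summed to 66.7 CPM in B6 EpiSC replicate 1, 377 in replicate 4, 996 in replicate 44, 1077 in replicate 2 and 2603 in replicate 51. They summed to 2022 to 2832 in PWK EpiSCs, 132.7 to 193.1 in F1 EpiSCs and 108 to 310.1 in DE, each range overlapping that of B6 EpiSCs. Of the 11 genes, 7 were lower in DE and 1 higher. All 11 had a positive log2 fold change in PWK and a negative one in F1, though 0 were called in either. The part of feeder RNA in the results below was not tested. In bulk samples, fewer cells of a type and less RNA per cell cannot be told apart.

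In B6 EpiSCs 62 of the 90 members reached 1 CPM in every library, and Zfp957 was at 0 in every library of both tables. Levels were uneven between the B6 EpiSC libraries. Replicate 4 was below all other B6 libraries for 46 of 80 tested members (57.5%), against 21.1% of all genes and 39.9% of other Zfp genes, and replicate 2 was above all others for 33 (41.2%), against 19.6% of all genes. In the cluster at chr17:21565816-22867309 replicate 4 was lowest for 10 of 11 members, with a median log2 difference of -0.79, and on chromosome 2 for 6 of 8, with a median of -1.01. Per-library values below are in the order of replicates 51, 44, 2, 4 and 1 for B6 EpiSC, 2, 44, 4 and 51 for B6 DE, BioRep698, BioRep695 and an unnumbered library for PWK, and 4, 9 and an unnumbered library for F1. Unnumbered here means that the column name matches the replicate name of no sample title, and the strain or cross in it gave the group. The unnumbered PWK libraries of RNA and of ATAC are not known to be the same sample.

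Summed over the cluster, chromosome 2 members stood at 51.1, 55.0, 70.7, 32.1 and 70.3 CPM in B6 EpiSCs and at 25.8, 21.1, 15.7 and 12.7 in B6 DE. Every DE library was below every EpiSC library. Chromosome 4 members summed to 73.9, 70.7, 112.7, 46.3 and 77.5 CPM in EpiSCs and to 29.2, 24.6, 31.0 and 23.4 in DE, again without overlap. The chromosome 8 cluster differed little, with 69.9 ± 7.68 CPM (SD, n = 5) in EpiSCs and 68.7 ± 16.0 (SD, n = 4) in DE. All 90 members together summed to 877.6 ± 133 CPM in EpiSCs and 722.6 ± 55.8 in DE.

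**Figure D1:**
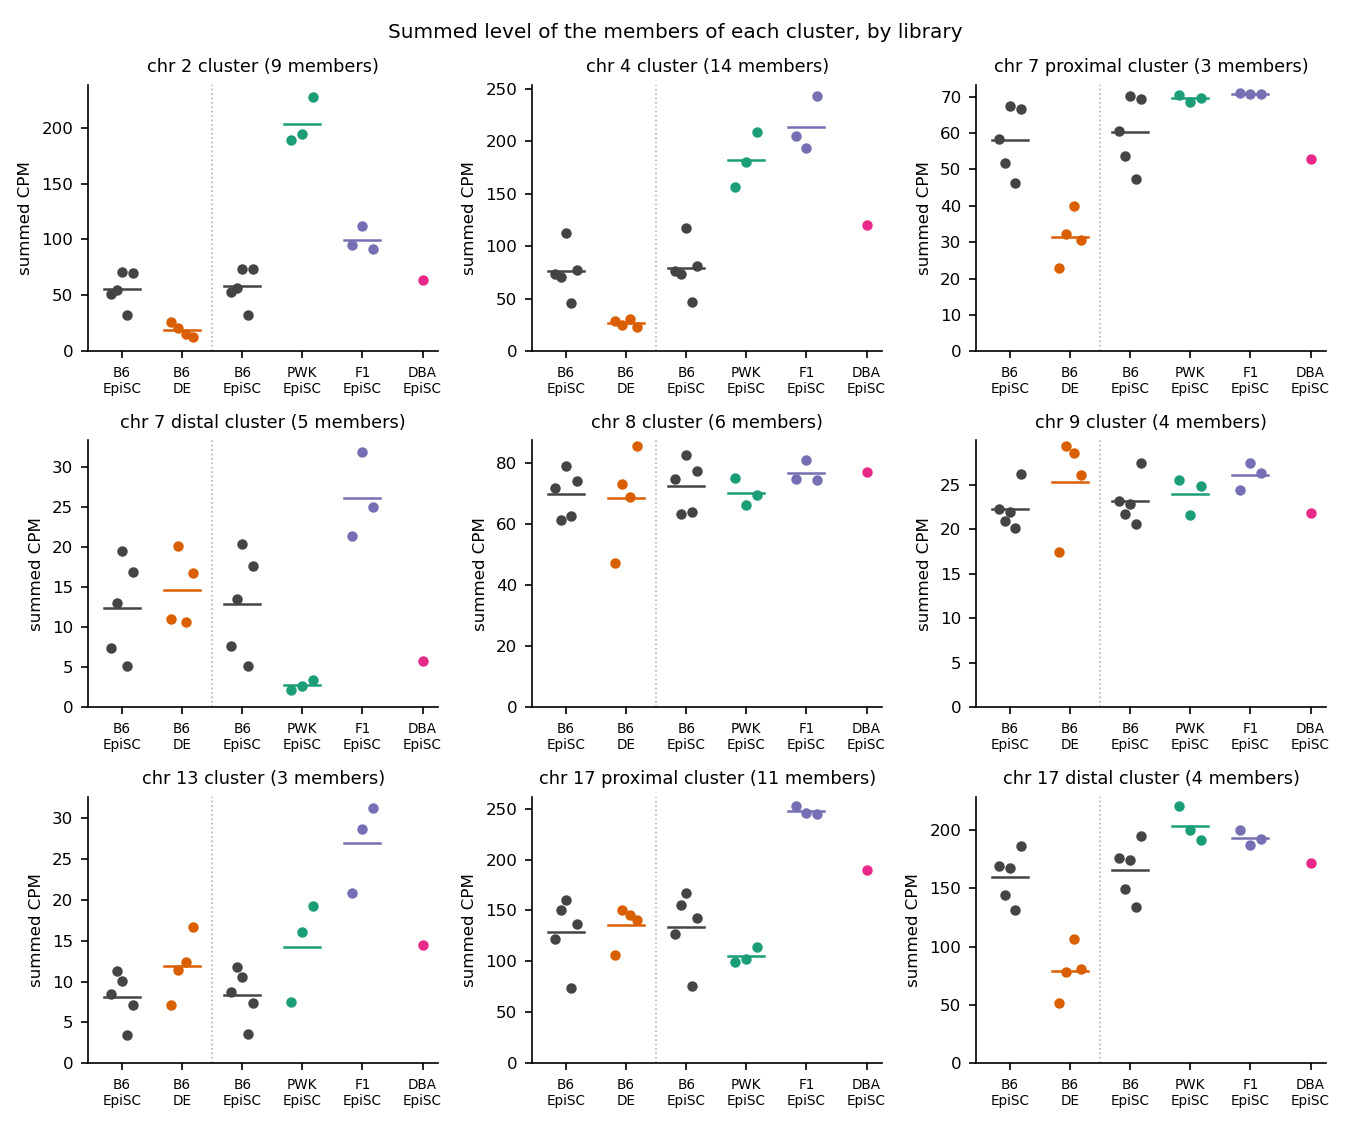
Summed CPM of the members of each of the 9 clusters (vertical axis) in every library (points), with group means (bars); the dotted line separates the scale of the DE table from that of the EpiSC table. The chromosome 2 and chromosome 4 sums are lower in DE than in B6 EpiSCs and higher in PWK, and the chr 7 distal sum (chr7:42579397-43618279) is lower in PWK, between 2.16 and 3.41 CPM.

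The comparison of DE with EpiSCs asked which genes change as B6 EpiSCs become endoderm. Of 73 members tested with edgeR, 8 were higher in DE (11%) and 19 lower (26%), where 31.5% of all genes tested were higher and 30.6% lower. The member share of lower calls is thus near the background and the share of higher calls below it. For 6 of the 73 members every DE library was above every EpiSC library and for 18 below, where 28% and 27.6% of all genes were so placed. The median log2 fold change of members was -0.22, as in the 282 other Zfp genes tested, and -0.01 over all genes. Calls were uneven over the clusters: 4 of 8 tested members were lower on chromosome 2 and 7 of 11 on chromosome 4, with 0 higher in either, and median log2 fold changes of -1.27 and -1.84. At chr7:27905414-29853695, 2 of 3 were lower, Zfp850 (log2 fold change -1.07) and Zfp940 (-0.76), and the sums did not overlap (46.4 to 67.5 CPM in EpiSCs, 22.8 to 39.9 in DE). At chr17:32765496-33005457, 1 of 4 was lower. In the cluster at chr17:21565816-22867309, 1 of 11 was higher and 1 lower, with a median of 0.18.

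On chromosome 4, Zfp987 stood at 3.44, 4.89, 4.49, 2.02 and 4.70 CPM in EpiSCs and at 0, 0, 0.0166 and 0.455 in DE. The groups did not overlap, and 2 DE libraries had no count. Its log2 fold change was -4.80 (SE 1.10, edgeR adjusted p = 0.00331). Zfp987 was among 10 of 78 members (12.8%) with 0 in some DE library and at least 20 counts in another. Of all genes with at least 20 counts in a DE library, 7.88% had this. Zfp991 stood at 13.9, 13.2, 15, 9.78 and 12.5 CPM in EpiSCs and at 2.49, 1.80, 2.16 and 1.52 in DE, a log2 fold change of -2.70 (SE 0.26, adjusted p = 1.5e-05). Zfp992 (12, 8.61, 14.3, 7.40 and 14.0 CPM against 4.78, 0.978, 1.11 and 2.08) fell by 2.34 on the log2 scale (SE 0.50, adjusted p = 0.00218). Neither gene had a DE library as high as any EpiSC library. Zfp988 fell by 3.57 (adjusted p = 0.00152), and Zfp984 fell by 0.88 (SE 0.29, adjusted p = 0.0207) with overlapping groups, its highest DE library at 10.9 CPM and its lowest EpiSC library at 9.64. Zfp982 went the other way without passing the test (log2 fold change 1.22, adjusted p = 0.0969).

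On chromosome 2, Zfp966 (ENSMUSG00000089756, chr2:175918283-175931100) stood at 19.5, 18.3, 27.6, 9.35 and 20.5 CPM in EpiSCs and at 0.966, 3.32, 3.32 and 2.75 in DE. The lowest EpiSC library was well above the highest DE library, and the log2 fold change was -2.87 (SE 0.42, adjusted p = 0.000208). Zfp973, which shares the printed 97 bases with it, stood at 5.28, 5.15, 7.08, 2.63 and 9.44 CPM against 0.61, 0.196, 0.498 and 0.455 and fell by 3.74 (SE 0.51, adjusted p = 0.00013). Zfp965, with the same 97 bases, had a log2 fold change of 0.07 and was not called, so members with the same letters in this window did not all change.

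Outside these clusters, Zfp871 at chr17:32765496-33005457 stood at 158, 130, 154, 116 and 172 CPM in EpiSCs and at 39.0, 53.7, 79.5 and 57.7 in DE, a log2 fold change of -1.34 (SE 0.21, adjusted p = 0.000307). The groups were far apart, with the highest DE library at 79.5 CPM and the lowest EpiSC library at 116. Zfp827, whose human counterpart has been linked to telomere chromatin, stood at 22.9, 19.3, 18.2, 13.9 and 13.1 CPM in EpiSCs and at 3.41, 7, 8.54 and 8.80 in DE (log2 fold change -1.33, SE 0.31, adjusted p = 0.00338). Feeder transcripts were lower in DE than in all EpiSC libraries except replicate 1, which held less (63.9 CPM). In that library Zfp966 stood at 20.5 CPM, Zfp991 at 12.5 and Zfp871 at 172. These are values of a single library, and the part of feeder RNA in the DE differences was not tested.

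Among the 8 genes that rose, Zfp830, which is needed in the early embryo and for genome integrity, had the tightest groups: 30.8, 24.4, 27.7, 27.3 and 27.0 CPM in EpiSCs and 58.3, 47.9, 43.4 and 46.5 in DE (log2 fold change 0.84, SE 0.14, adjusted p = 0.00046). Zfp954 rose by 0.98 (SE 0.19, adjusted p = 0.00123), with 6.93 to 8.94 CPM in EpiSCs and 12.7 to 18.2 in DE. Zfp958 rose by 1.19 (adjusted p = 0.00395), Zfp963 of the chromosome 8 cluster by 1.2 (adjusted p = 0.0083) although EpiSC replicate 2 stood at 5.03 CPM, and Zfp947, the only member of the large chromosome 17 cluster called higher, by 1.23 (adjusted p = 0.00901). Zfp821 was at 0 in 4 EpiSC libraries, at 2.69 CPM in replicate 44, and at 23.1, 4.42, 7.16 and 20.1 in DE (log2 fold change 4.63, SE 1.51, adjusted p = 0.0208). Its DE libraries spread widely, and the value rests on few counts in EpiSCs.

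Zfp809, which recognises the primer binding site of murine leukaemia viruses, had a log2 fold change of -1.15 and missed the threshold (adjusted p = 0.0883). Zfp932, a repressor of endogenous retroviruses, had -0.03 (adjusted p = 0.905), Zfp800 had 0.14 (adjusted p = 0.56) and Zfp808 had 0.03 (adjusted p = 0.947). Zfp819 was at most at 0.114 CPM in any library of the DE table and was not tested.

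**Figure D2:**
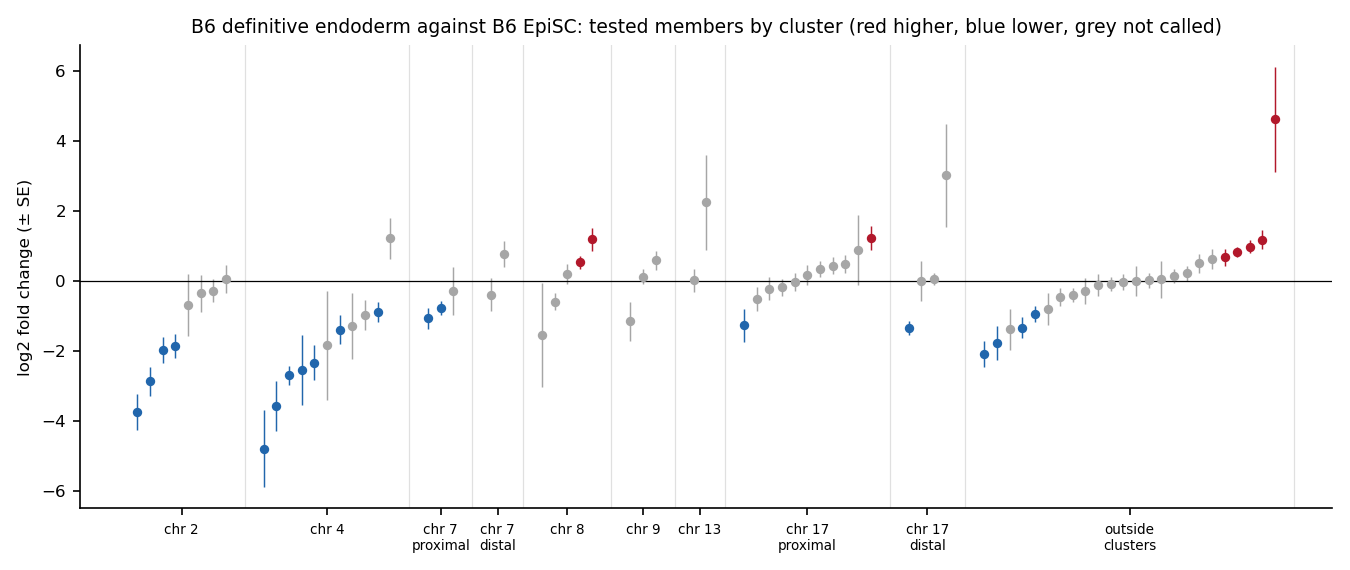
Log2 fold change of DE against B6 EpiSC (vertical axis, bars show the SE) for the 73 tested members, ordered by cluster; red points are higher, blue points lower and grey points not called. The points of the chromosome 2 and 4 clusters lie mostly below 0, while those of the cluster at chr17:21565816-22867309 scatter around 0.18.

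The silencing partners of the KRAB proteins were read from a list. Of 30 listed cofactors found, 29 were tested, and 17 were lower in DE (58.6%) and 6 higher (20.7%), where 30.6% and 31.5% of all genes were. Their median log2 fold change was -0.72. Trim28 itself fell from 864 ± 175 CPM (SD, n = 5) to 442 ± 97.6 (SD, n = 4; log2 fold change -0.97, SE 0.20, adjusted p = 0.00187). Setdb1 fell by 0.92 (adjusted p = 0.00123), the heterochromatin protein gene Cbx5 by 2.21 (adjusted p = 9.85e-06), the NuRD remodeller gene Chd4 by 2.37 (adjusted p = 1.25e-06) and the DNA methyltransferase gene Dnmt3a by 2.72 (adjusted p = 1.11e-05). The deacetylase genes Hdac1 and Hdac2 rose, by 0.48 and 0.96. Of 10 related zinc finger genes tested outside the number range, 5 were lower (50%) and 1 higher (10%), against the same shares of all genes. Zfp57, which guards imprints, fell by 1.29 (adjusted p = 0.000436) and Zfp568, a repressor at Igf2, by 1.76 (adjusted p = 1.55e-05). Zkscan3 rose by 0.91 (edgeR adjusted p = 0.000186).

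The EpiSC lines of other genetic backgrounds were compared with the 5 B6 libraries in 1 fit of 11 libraries. The PWK and F1 comparisons share those B6 libraries, so likeness between them is no independent support. Of 80 members tested with edgeR, 13 were higher (16.2%) and 15 lower (18.8%), where 12% of all genes tested were higher and 14.5% lower. Every PWK library was above every B6 library for 19 of the 80 members and below for 13, where 16.4% and 15.8% of all genes were so placed. The shares are a little above the background, and without BioRep695 or without the unnumbered PWK library 9 were lower. The median log2 fold change was -0.03. All 8 tested chromosome 2 members were called, 6 higher and 2 lower. On chromosome 4, 6 of 14 were higher and 2 lower, and 0 of 6 on chromosome 8 were called. At chr7:42579397-43618279, 2 of 3 tested members were lower and Zfp977 was not called (log2 fold change -2.29, adjusted p = 0.0549).

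Summed over chromosome 2, PWK stood at 188.5, 194.4 and 227.8 CPM and B6 at 53.2, 57.0, 73.7, 32.7 and 73.4. All PWK libraries were above all B6 libraries. Zfp966 stood at 20.3, 19.0, 28.8, 9.53 and 21.4 CPM in B6 and 99.7, 107 and 125 in PWK. The lowest PWK library was over 3 times the highest B6 library, and the log2 fold change was 2.48 (SE 0.26, edgeR adjusted p = 7.56e-05). Zfp968 stood at 2.15, 2.42, 2.22, 0.919 and 4.39 CPM in B6 and at 15.3, 18.9 and 22.1 in PWK (log2 fold change 2.96, SE 0.37, adjusted p = 0.000232). Zfp965 stood at 3.23, 3.86, 4.17, 3.20 and 5.07 CPM in B6 and at 13.1, 13.4 and 15.1 in PWK (1.83, SE 0.17, adjusted p = 3.37e-05). Groups did not overlap for either. Zfp970, Zfp973 and Zfp931 rose by 1.69, 1.09 and 0.80. Zfp972, whose promoter stretch differs from that of Zfp966 at 8 positions, was lower, with 1.35, 2.89, 2.34, 1.40 and 2.77 CPM in B6 and 1.04, 1.01 and 0.992 in PWK (log2 fold change -1.08, SE 0.33, adjusted p = 0.0354).

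On chromosome 4, Zfp982 stood at 0.50, 0.436, 0.874, 0.441 and 1.46 CPM in B6 and at 6.62, 8.45 and 9.96 in PWK (log2 fold change 3.49, SE 0.39, adjusted p = 0.000124). Zfp979 stood at 9.57, 10.8, 11.6, 4.85 and 4.47 CPM in B6 and at 30.7, 32.7 and 35.6 in PWK (1.99, SE 0.29, adjusted p = 0.000614). Zfp984 stood at 15.4, 16.3, 28.2, 9.82 and 19.0 CPM in B6 and at 43.3, 51.8 and 53.8 in PWK (1.48, SE 0.25, adjusted p = 0.00157). In all of these genes the lowest PWK library was above the highest B6 library. Zfp985 rose by 3.58 (SE 0.78, adjusted p = 0.00695), although B6 replicate 2 stood at 2.06 CPM and the other B6 libraries at 0.0736 to 0.268, and Zfp992 rose by 0.79 (SE 0.25, adjusted p = 0.0386). Neighbours went the other way: Zfp987 stood at 3.58, 5.07, 4.69, 2.06 and 4.91 CPM in B6 and at 1.75, 1.75 and 2.06 in PWK (log2 fold change -1.13, SE 0.29, adjusted p = 0.0165), and Zfp991 fell by 0.96 (adjusted p = 0.00534).

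Zfp990 of chromosome 4 showed how far libraries of 1 strain can differ. It stood at 0.231, 0.57, 17.3, 0.478 and 0.554 CPM in B6 and at 26.0, 28.9 and 48.2 in PWK. B6 replicate 2 stood apart from the other B6 libraries, and with it the gene was not called (log2 fold change 3.18, adjusted p = 0.0635), although the strains did not overlap.

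At chr7:42579397-43618279, Zfp976 stood at 3.58, 6.31, 10.2, 2.28 and 10.1 CPM in B6 and at 0.930, 0.909 and 1.98 in PWK (log2 fold change -2.35, SE 0.53, adjusted p = 0.00806). Zfp975 stood at 4.08, 6.58, 9.25, 2.68 and 7.04 CPM in B6 and at 1.12, 1.65 and 1.27 in PWK (-2.13, SE 0.40, adjusted p = 0.00279). Both had every PWK library below every B6 library. Zfp947 on chromosome 17 fell by 1.41 (SE 0.29, adjusted p = 0.00462) and Zfp974 at chr7:27905414-29853695 by 1.35 (SE 0.34, adjusted p = 0.0135).

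Zfp932 (ENSMUSG00000066613, chr5:109996502-110012266) stood at 21.6, 18.6, 23.5, 11.8 and 20.7 CPM in B6 and at 11.8, 12.9 and 12.8 in PWK. The groups met at B6 replicate 4, and the log2 fold change was -0.62 (SE 0.19, adjusted p = 0.0368). Zfp809 (log2 fold change 0.56, adjusted p = 0.228), Zfp800 (-0.01), Zfp808 (-0.01), Zfp827 (0.27) and Zfp830 (-0.01) were not called, and Zfp819 was again too low to test.

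Feeder transcripts were as high in B6 replicate 51 (2603 CPM) as in PWK (2022 to 2832). In that library Zfp966 stood at 20.3 CPM, Zfp984 at 15.4 and Zfp976 at 3.58. The part of feeder RNA in the PWK differences was not tested. Trim28 (log2 fold change 0.09, adjusted p = 0.697) and Setdb1 (-0.19, adjusted p = 0.221) were not called in PWK. Of 29 cofactors tested, 2 were higher (6.9%) and 4 lower (13.8%), where 12% and 14.5% of all genes were. Of 11 related zinc finger genes tested, 3 were lower (27.3%) and 1 higher (9.09%). Zfp57 fell by 1.03 (adjusted p = 0.00189), Gm15446, a close relative of Zfp932, by 1.04, and Rsl1, which represses sex-biased liver genes, by 1.53. Rex2, a zinc finger gene of the chromosome 4 region, rose by 1.74. The submitters' processing notes name mm10, a build of B6, for the libraries of all strains. How far reads of the other strains failed to match it was not tested.

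**Figure D3:**
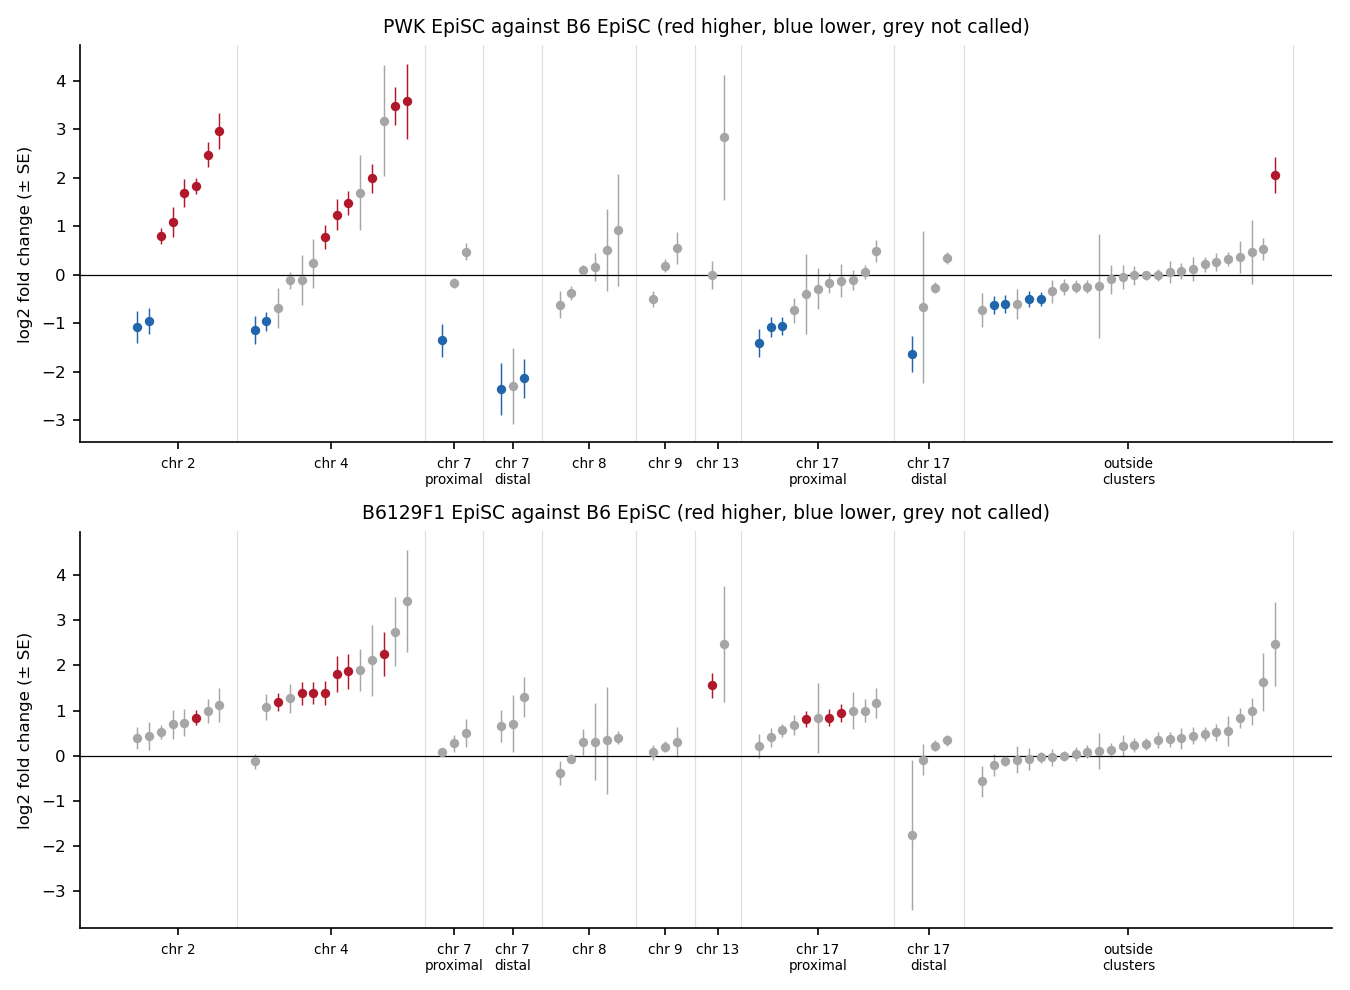
Log2 fold change against B6 EpiSC (vertical axis, bars show the SE) of the 80 tested members by cluster, for PWK and for F1; red points are higher, blue lower and grey not called. In PWK 13 points are red and 15 blue, with both colours inside the chromosome 2 and 4 clusters, and in F1 12 are red and 0 blue.

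In the B6.129 F1 lines the members leaned upward. Of 80 tested, 12 were higher by edgeR (15%), where 1.34% of all genes tested were higher, and 0 were lower, where 1.5% of all genes were lower. Every F1 library was above every B6 library for 32 of the 80 members and below for 0, where 7.83% and 6.64% of all genes were so placed. Of 286 other Zfp genes tested, 51 were so placed above and 15 below, and 8 were called higher (2.8%) and 3 lower (1.05%). At an unadjusted edgeR p under 0.05, 37 members were higher and 0 lower. Of all 14822 genes tested, 1597 were higher and 2015 lower at that threshold, and of 286 other Zfp genes 58 and 25. DESeq2 also called 0 members lower, but its share over all genes is not given here. The median log2 fold change was 0.49 for members, 0.06 for other Zfp genes and -0.03 for all genes, and 67 of 80 members were above 0. The calls lay on chromosome 4 (7 of 14), at chr17:21565816-22867309 (3 of 11, all 11 with a positive fold change), on chromosome 2 (1 of 8) and on chromosome 13 (1 of 2). The count depends on single libraries: it was 0 without F1 replicate 4 or without the unnumbered F1 library, 1 without F1 replicate 9 or B6 replicate 44, 4 without B6 replicate 51, 19 without B6 replicate 2 and 27 without B6 replicate 1. It was also 0 with only the B6 and F1 libraries in the fit, and 28 with DESeq2.

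Zfp987, lower in PWK, was higher in F1, at 9.35, 9.75 and 12.8 CPM (log2 fold change 1.39, SE 0.27, adjusted p = 0.0341). Zfp984 stood at 49.2, 42.8 and 47.5 CPM in F1 (1.39, SE 0.25, adjusted p = 0.0306) and Zfp992 at 24.2, 26.1 and 40.6 (1.38, SE 0.25, adjusted p = 0.0306). Each of these lay above all 5 B6 libraries in every F1 library. Zfp980 stood at 1.19, 1.07, 1.63, 0.147 and 1.19 CPM in B6, 1.00, 1.28 and 1.43 in PWK and 4.87, 4.52 and 5.71 in F1 (F1 log2 fold change 2.26, SE 0.49, adjusted p = 0.042). PWK lay within the B6 range and F1 above it. Zfp982 rose by 1.87 (SE 0.39, adjusted p = 0.0386) and Zfp988 by 1.81 (SE 0.40, adjusted p = 0.042).

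On chromosome 13, Zfp808 stood at 7.46, 8.69, 8.66, 3.57 and 7.40 CPM in B6 and at 17.2, 22.6 and 23.4 in F1 (log2 fold change 1.56, SE 0.28, adjusted p = 0.0306), with no overlap. In the large chromosome 17 cluster the sum was 252.9, 245.4 and 244.2 CPM in F1 and 127.1, 155.5, 167.5, 75.6 and 142.4 in B6. Zfp945 in it stood at 45.7, 46.1 and 46.2 CPM in F1, 19.9, 28.0, 29.3, 14.7 and 27.3 in B6 and 9.93, 11.1 and 12.9 in PWK, so the 3 groups did not overlap. F1 had low feeder transcripts. B6 replicate 1 had still fewer (66.7 CPM), and there Zfp984 stood at 19.0 CPM and Zfp808 at 7.40. The part of feeder RNA in the F1 differences was not tested. Trim28 was not called in F1 (log2 fold change -0.10, adjusted p = 0.754). Of 29 cofactors tested, 2 were higher (6.9%) and 0 lower, where 1.34% and 1.5% of all genes were. The 2 were Fam208a (0.81, edgeR adjusted p = 0.0341) and Suv39h2 (0.40, adjusted p = 0.0438). Of 11 related zinc finger genes tested, 1 was higher, Rex2 (2.41, adjusted p = 0.0455), and 0 lower.

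**Figure D4:**
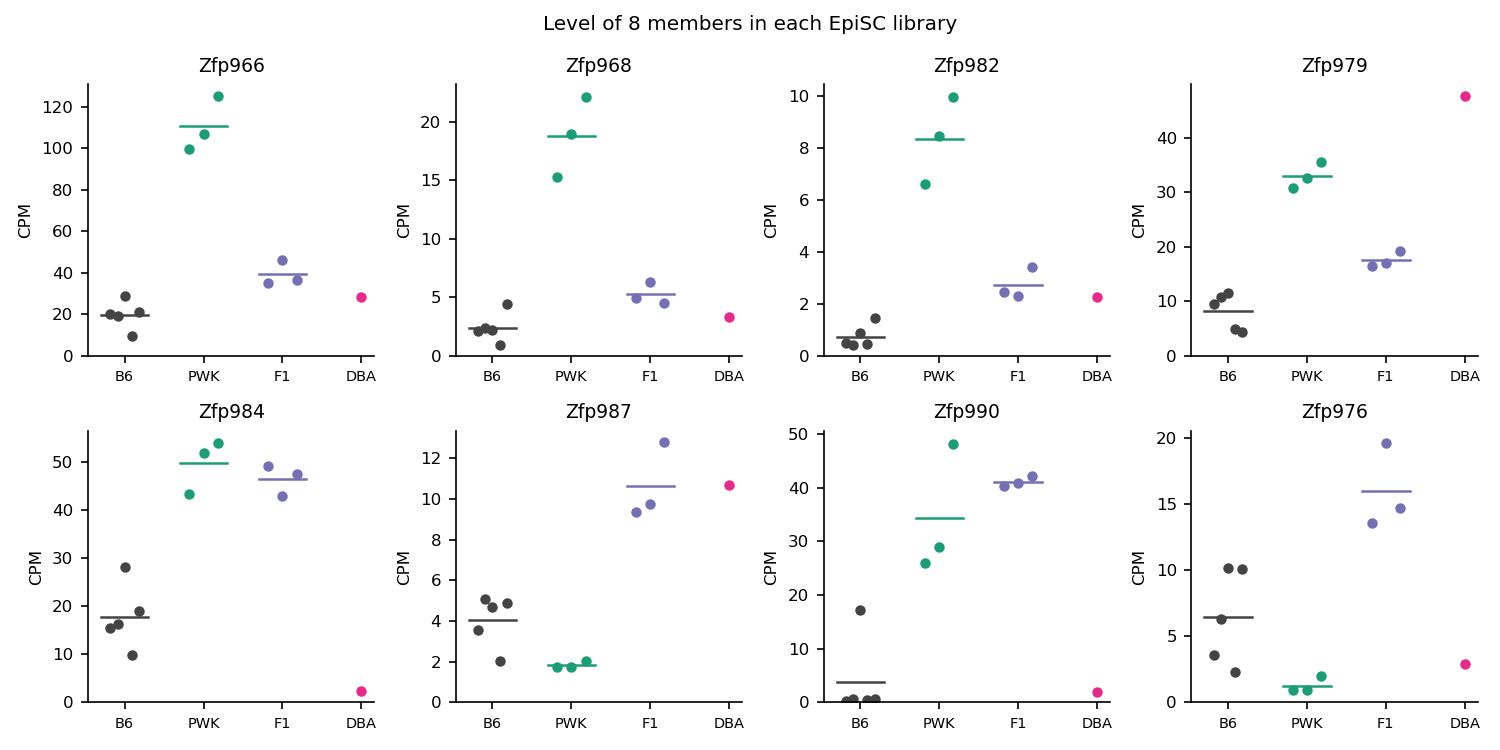
CPM (vertical axis) of 8 members in each EpiSC library (points) of B6, PWK, F1 and DBA, with lines at the group means. Zfp966 reaches 99.7 to 125 CPM in PWK and 35.2 to 46.3 in F1, Zfp984 is high in PWK and F1 and at 2.45 in DBA, and Zfp990 is high in 1 of 5 B6 libraries.

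The DBA/2J line had 1 library, so its differences have no test. Among 73 members at 1 CPM or more, 7 had a log2 ratio to the B6 mean above 1 (9.59%) and 4 below -1 (5.48%), where 2.84% and 3.7% of all genes did. Without B6 replicate 2 in the mean, 11 were above, and with a minimum of 3 CPM in place of 1 CPM, 3 were. Single B6 libraries set against the other B6 libraries gave 0 to 3 members above and 0 to 2 below, except that replicate 4 gave 1 above and 13 below. Zfp979 of chromosome 4 stood at 47.6 CPM in DBA and 8.19 ± 3.31 in B6 (SD, n = 5; log2 ratio 2.47). Zfp984, its neighbour, stood at 2.45 CPM in DBA and 17.6 ± 6.65 in B6 (log2 ratio -2.61), below every B6 library. Zfp981 and Zfp980 of the same cluster had log2 ratios of 1.96 and 1.66. Zfp975 and Zfp976 of chromosome 7, lower in PWK, had log2 ratios of -1.58 and -1.01 in DBA, and Zfp970 of chromosome 2, higher in PWK, had -1.49. Zfp821 stood at 2.93 CPM in DBA (log2 ratio 1.72) and was found in 1 of the 5 B6 libraries.

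ATAC-seq measures how open chromatin is by where a transposase can cut. Peaks were read within 1 kb of a RefSeq start for 77 members, and within 2 kb of either gene end for 10 others. Between DE and EpiSCs, 123 such peaks lay at 71 members, and of 104 tested with edgeR 3 were higher in DE (2.88%) and 21 lower (20.2%). Over all peaks tested 32.6% were higher and 25% lower, and over 19670 peaks at start sites of all genes 15.6% and 15.5%. Without B6 EpiSC replicate 51, 38 peaks were lower. Of 17 members with lower peaks only, 4 were higher in RNA, 1 lower, 11 not called and 1 not tested. Zfp811 (log2 fold change -0.85, adjusted p = 0.000946) was among the lower peaks, and a peak at Zfp946 was higher (14.4 against 6.23 CPM, 1.22, adjusted p = 0.000522).

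In PWK, 133 peaks lay at 74 members, and of 113 tested 16 were lower (14.2%) and 1 higher (0.885%), where 3.68% and 1.42% of all peaks were. Over 21259 peaks at start sites of all genes 1.97% were lower and 0.776% higher. The build named for these reads, mm10, is of B6, and how far PWK reads failed to match it was not tested. A lower count is therefore not by itself less open chromatin. Without B6 EpiSC replicate 1 or 4, 9 were lower. Of 12 members with a lower peak, 7 were also lower in RNA, 1 higher (Zfp984) and 4 not called. At the start of Zfp932 (chr5:109996377-109996649), the peak stood at 30, 28.8, 35.6 and 37.1 CPM in B6 replicates 1, 4, 44 and 51 and at 2.34 and 3.19 in PWK BioRep698 and the unnumbered library. The log2 fold change was -3.53 (SE 0.27, edgeR adjusted p = 3.84e-06), beside an RNA log2 fold change of -0.62. The DBA library stood at 41.5 CPM there. At Zfp972 (chr2:177925637-177925988), a peak that holds the printed stretch stood at 15.3, 15.5, 24.6 and 11.8 CPM in B6 and at 2.16 and 0.911 in PWK (-3.50, SE 0.44, adjusted p = 0.000273), on the same side as its RNA. At Zfp811 (chr17:32809815-32810346) it stood at 44.8, 38.3, 38.2 and 55.7 CPM in B6 and at 4.14 and 5.24 in PWK (-3.22, SE 0.25, adjusted p = 5.54e-06). B6 and PWK did not overlap at any of these 3 peaks.

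At chr7:42579397-43618279, 5 of 6 tested peaks were lower in PWK, and Zfp975 and Zfp976 were lower in both assays. At Zfp975 (chr7:42692535-42692959) the peak stood at 34.5, 35.0, 18.5 and 29.3 CPM in B6 and at 3.60 and 11.4 in PWK (log2 fold change -1.92, adjusted p = 0.00615). At Zfp976 (chr7:42642529-42642814) it stood at 23.5, 21.2, 8.21 and 26.2 in B6 and at 2.16 and 8.20 in PWK (-1.88, adjusted p = 0.0295). B6 replicate 44 and the unnumbered PWK library thus met at Zfp976. On chromosome 17 the peak of Zfp994 that holds its printed stretch stood at 27.0, 26.4, 28.0 and 32.7 CPM in B6 and at 9.00 and 11.8 in PWK (-1.44, SE 0.22, adjusted p = 0.00143).

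Zfp984 went against its RNA. Its peak at chr4:147809769-147809904 stood at 5.56, 5.85, 3.59 and 6.81 CPM in B6 and at 0.72 and 1.82 in PWK (log2 fold change -2.04, SE 0.53, adjusted p = 0.0374), while its transcript was higher in PWK. The DBA library had 0 counts there, which allows up to 3, and the transcript was low in DBA.

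The most similar copies could not be followed by ATAC. At Zfp965, Zfp966, Zfp968 and Zfp973, whose starts share the 97 bases printed above, 6 peaks were listed with 0 counts in every library of the strain table and 4 in that of the DE table. Only 2 of 11 peaks at the chromosome 2 members and 7 of 13 at the chromosome 4 members could be tested in the strain table. How reads that match several copies were treated is not given in the sources used here, so the RNA differences of these genes have no matching measurement of their start sites.

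**Figure D5:**
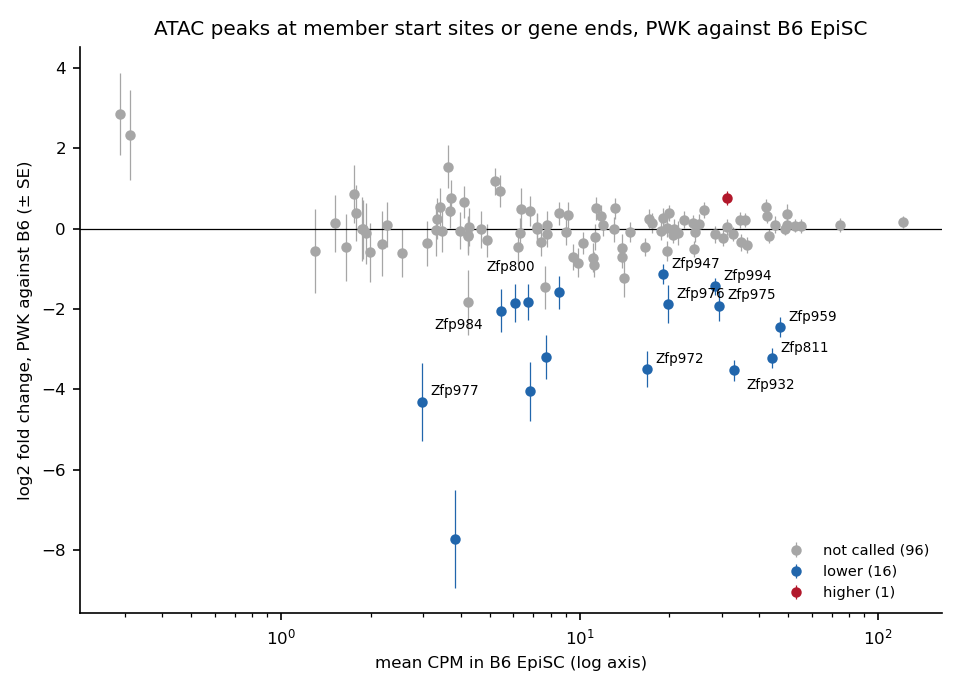
Log2 fold change of PWK against B6 EpiSC (vertical axis, bars show the SE) of 113 ATAC peaks at members against their mean CPM in B6 (log axis). The 16 lower peaks (blue) include those at Zfp932 (-3.53), Zfp972 (-3.50) and Zfp811 (-3.22), and 1 peak, at Zfp935, is higher (red).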

How the data were processed

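The authors deposited raw counts per Ensembl gene (RNA) and raw counts per peak (ATAC), per the file headers. Per the labels' protocols, RNA was poly(A) selected and made into stranded TruSeq libraries. The submitters' processing notes name mm10, Salmon, DESeq2 and featureCounts for RNA, and fastp, Bowtie2, MACS2, featureCounts and DESeq2 for ATAC, without versions or roles, so whether strand was used and how reads with several matches were counted are not given in the sources used here. Members and gene lists were chosen with earlier results of these data known. Symbols matched 29270 of 29555 gene identifiers, and Zfp804a falls outside the symbol pattern.

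Whole tables were fitted with edgeR 4.0.16 in R 4.3.3 (TMM sizes, filterByExpr, robust quasi-likelihood F test), with Benjamini-Hochberg adjustment over all features tested and calls at an adjusted p under 0.05. DE was fitted on 9 libraries, and the strains on 11 libraries that share 1 estimate of the spread. ATAC was fitted on 8 libraries (DE) and 6 (PWK). CPM uses the effective library sizes of each fit, and the DBA ratio a pseudocount of 0.5 CPM. The SE is the log2 fold change divided by the square root of F. In each tested RNA comparison the genes named were the 6 called members with the largest change in each direction at a mean of at least 1 CPM, in DBA the 4 with the largest ratio each way, and 10 fixed genes. Zfp811, Zfp850, Zfp871, Zfp931, Zfp940, Zfp945, Zfp946, Zfp965 in DE, Zfp970, Zfp973 and Zfp991 in PWK, Zfp977, Zfp990 and Zfp994 were named after their values had been seen. DESeq2 1.42.0, other size factors, other filters, sums within clusters and leaving out each library were tried as alternatives. Promoters came from RefSeq (GRCm38.p6). The scripts were tested on simulated data. Protein features were not analysed, 3 PWK DE samples were not analysed here, and 17 columns with no matching sample label were not used.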

Additional observations from a re-analysis of the deposited data

Results flagged for a closer look

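In groups of 4 or 5 libraries, the highest or lowest library stood far from the rest in 5 of 54 groups of named members checked, and chance gives about 1 in 20. Zfp979 stood at 7.35 CPM in B6 DE replicate 4 and at 2.75 to 3.01 in the other DE libraries. Zfp821 stood at 2.78 CPM in B6 EpiSC replicate 44 and at 0 in the others. B6 EpiSC replicate 2 was apart for Zfp963, at 5.24 CPM against 2.25 to 3.11, and for Zfp985, at 2.06 CPM against 0.0736 to 0.268. B6 EpiSC replicate 4 was apart for Zfp808, at 3.57 CPM against 7.4 to 8.69.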

How the results depend on the processing

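No member named for its change in a comparison changed the sign of its own log2 value there. The alternatives run on single members do not include the sums within clusters. Fixed genes that were not called crossed 0 in some comparisons, such as Zfp808 in PWK (-0.32 to 0.17) and Zfp932 in DE (-0.17 to 0.07). With the counts of each cluster summed into 1 feature, 5 members were higher and 34 lower in DE, 24 higher and 9 lower in PWK, and 28 higher in F1, a member of a cluster counting with its cluster. Of the 15 members lower in PWK, 6 remained so under the sums, and Zfp971, Zfp972, Zfp987 and Zfp991 counted as higher with their clusters. Leaving out 1 library at a time gave 6 to 11 higher and 17 to 22 lower members in DE, 10 to 15 higher and 9 to 18 lower in PWK, and 0 to 27 higher and 0 lower in F1. F1 calls went to 28 with DESeq2 and to 0 with only B6 and F1 in the fit. For ATAC peaks in DE, 8 were higher within 2 kb, 38 lower with total library sizes, and leaving out 1 library gave 2 to 3 higher and 22 to 38 lower. In PWK, total library sizes gave 2 higher peaks, at least 10 counts in every library left 8 lower, and leaving out 1 library gave 0 to 3 higher and 9 to 16 lower. For DBA, a mean of at least 3 CPM left 3 higher members, and leaving out 1 B6 library gave 7 to 11 higher and 3 to 5 lower. The cause of these moves was not tested, apart from fewer features under a stricter filter. Replicate numbers were not shown to pair samples: same-numbered RNA libraries of DE and EpiSC had deviations correlated at 0.088 to 0.214, and 3 of 4 were best correlated with their own number, while ATAC gave -0.011 to 0.053. With the replicate block, 6 members were higher and 17 lower in DE, against 8 and 18 in the same libraries without it, and 1 ATAC peak was higher and 11 lower, against 1 and 14.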
